A study of Cavia porcellus with 10 samples.

Results

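Laminins, nidogens and fibronectin are large secreted glycoproteins of the extracellular matrix. Counts were examined for 9 of their genes in guinea pig sclera, the tough outer coat of the eye: the laminin chains LAMA2, LAMA4, LAMA5, LAMB1, LAMB2 and LAMC1, the nidogens NID1 and NID2, and fibronectin, FN1. They were chosen by name from the 17642 lines of the deposited table that carry a symbol, 1 line being found for each. The table mixes capital and lower-case symbols (Lama2, LAMA4), and capitals are used throughout here. Male guinea pigs aged 2 to 3 weeks either underwent lens-induced myopization (LIM) of both eyes, in which lenses drive the eye to become nearsighted, or stayed untreated as controls. Each group had 5 RNA-seq libraries of scleral tissue, each from 1 eye. The labels name no genetic change, drug, strain or length of lens wear for either group. Library totals ran from 32309258 to 35430797 counts. The 9 genes held 0.239% to 0.365% of the counts of a control library and 0.389% to 0.483% of a myopia library. Control libraries 4 and 5, with the largest shares among the controls, at 0.321% and 0.365%, also had the TMM scaling factors nearest to those of myopia, so results are given without them where this changes a value or a call.

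A laminin molecule is a cross-shaped trimer of an alpha, a beta and a gamma chain, and laminins assemble into the sheet that starts a basement membrane, the thin matrix layer around vessels, muscle fibres, nerve sheaths and fat cells and under epithelia. Nidogens bind the gamma chain encoded by LAMC1 and link the laminin sheet to the collagen IV network. Fibronectin is a dimer that cells pull into fibrils through integrins, and it guides the early deposition of collagen in connective tissue such as sclera. Most of the sclera is fibroblasts in collagen lamellae rather than basement membrane, so laminin transcripts can come from several cell types.

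The transcripts of this group differed little between myopic and control sclera. In scaled CPM, the counts of a gene relative to the library total multiplied by a TMM factor, which rests on the bulk of genes, LAMA2 and LAMC1 were modestly higher in myopia, NID1 was lower, and the other 6 did not pass the test. Thus 3 of 9 genes passed an adjusted p of 0.05 in edgeR's quasi-likelihood test with Benjamini-Hochberg adjustment over all genes, against 71.9% of the 14683 genes tested. Of the 9, 2 were higher, where 36.9% of all genes were, and 1 was lower, where 35.1% of all genes were. The median absolute log2 fold change was 0.17 over the 9 genes and 0.71 over all genes tested. No member exceeded 0.41 in either direction, a size that 70.8% of all genes tested did exceed.

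The split of calls depended on the scaling. With total counts in place of TMM factors the median log2 fold change of all genes tested moved from 0.03 to 0.47, and 6 members passed as higher and 0 as lower. On that scale 70.7% of all genes passed, 52% as higher and 18.7% as lower. With RLE factors 1 member passed as higher and 2 as lower, and without control libraries 4 and 5 the split stayed at 2 higher and 1 lower. Higher and lower therefore mean relative to the bulk of genes, and the order of the members among themselves is read from ratios within a library, given further on.

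**Figure D1:**
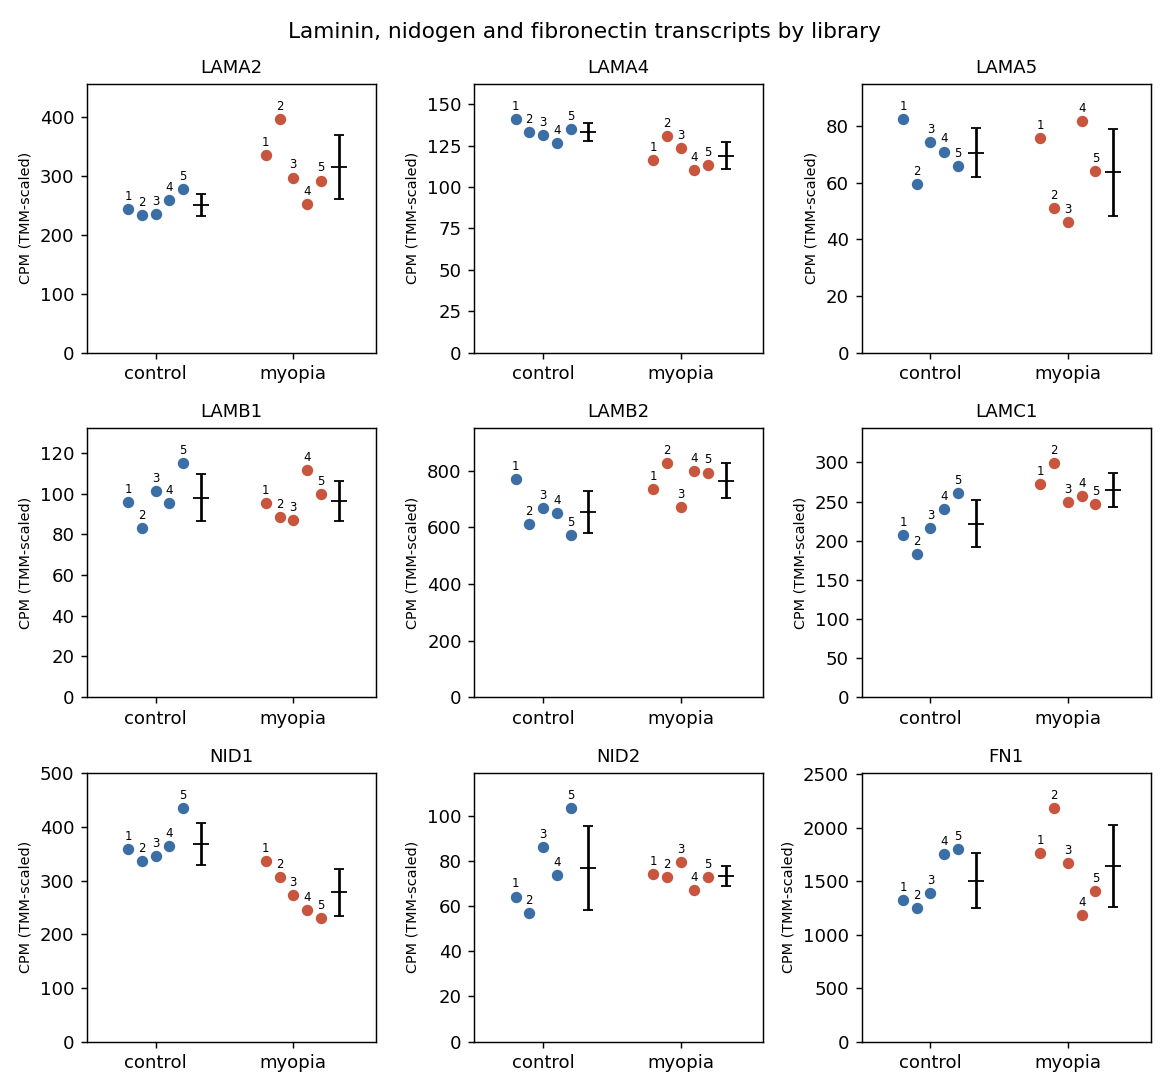
TMM-scaled CPM (vertical axes from 0) of the 9 genes in each library, with control in blue, myopia in red, replicate numbers beside the points, and black bars for mean and SD of 5 libraries. The groups overlap in every panel but that of NID1, where the lowest control library (336.9 CPM) lies just above the highest myopia library (335.5 CPM).

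Among the alpha chains, which carry most of the cell-binding sites of a laminin, LAMA2 rose. LAMA2, the chain of muscle and nerve basement membranes, stood at 244, 233, 236, 259 and 278 CPM in control libraries 1 to 5. In myopia libraries 1 to 5 it stood at 336, 397, 297, 252.4 and 292 CPM. Myopia library 4 lay among the controls and the other 4 lay above them. The group means were 250.3 ± 18.7 and 315 ± 54.6 CPM (SD, n = 5 each). This gave a log2 fold change of 0.33 ± 0.12 (SE; adjusted p = 0.0213), with a 95% confidence interval of 0.08 to 0.59, which is a 1.26-fold rise. Without myopia library 2, the highest, the log2 fold change was 0.23 and did not pass (adjusted p = 0.0629). With total counts it was 0.77, and 0.29 relative to the median gene on that scale.

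LAMA4, the alpha chain of small vessels and fat cells, varied least of the 9 genes within control (coefficient of variation 4.05%). It stood at 141, 133, 131, 126 and 135 CPM in control and at 116, 130.5, 123, 110.4 and 113 CPM in myopia. Only myopia library 2 reached into the control range. The log2 fold change of -0.17 ± 0.08 (SE) narrowly missed the threshold (adjusted p = 0.0646), with an interval of -0.33 to -0.002 before adjustment. It passed with RLE factors (-0.19, adjusted p = 0.0427), with DESeq2 (-0.19, adjusted p = 0.0202) and without myopia library 2 (-0.20, adjusted p = 0.0393), and with total counts it turned to 0.28 (adjusted p = 0.00462).

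LAMA5, the broad alpha chain of mature vessels and epithelia, stood at 82.5, 59.4, 74.4, 70.9 and 65.8 CPM in control and at 75.5, 50.9, 46.1, 81.7 and 64.1 CPM in myopia. The groups overlapped over most of their range, and myopia spread widest, with a coefficient of variation of 24.0%. Its log2 fold change of -0.15 ± 0.15 (SE) did not pass (adjusted p = 0.391, 95% confidence interval -0.48 to 0.18). It was -0.05 without myopia library 3, -0.25 without myopia library 4 and 0.31 with total counts.

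On the TMM scale neither beta chain passed the test. LAMB2, the beta chain of neuromuscular junctions, glomeruli and smooth muscle, stood at 769.8, 611, 667, 652 and 572 CPM in control and at 736, 827, 673, 799 and 794 CPM in myopia. Control library 1 lay within the myopia range and control libraries 2 to 5 lay below it. The log2 fold change of 0.23 ± 0.11 (SE) did not pass (adjusted p = 0.0731, 95% confidence interval -0.005 to 0.46). It passed without control library 1 (0.30, adjusted p = 0.0197), without myopia library 3 (0.27, adjusted p = 0.0494), with upper quartile factors (0.30, adjusted p = 0.0134) and with total counts (0.68, adjusted p = 2.35e-05).

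LAMB1, the beta chain of most early and many adult laminins, stood at 96.0, 82.9, 101, 95.4 and 115 CPM in control and at 95.5, 88.5, 87.0, 112 and 100.03 CPM in myopia. Both groups covered the same range. The log2 fold change was -0.02 ± 0.10 (SE; adjusted p = 0.842), with a 95% confidence interval of -0.24 to 0.19, and its sign turned with upper quartile factors (0.04), total counts (0.42, adjusted p = 0.0157) and several left-out libraries.

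LAMC1, the gamma chain shared by nearly all laminins and the partner of nidogen, stood at 207, 183, 216, 241 and 262 CPM in control and at 273, 299, 249.8, 257 and 247 CPM in myopia. Control library 5 lay among the myopia libraries and the other 4 controls lay below them. LAMC1 had a log2 fold change of 0.26 ± 0.11 (SE; adjusted p = 0.0421), a 1.20-fold change with a 95% confidence interval of 1.02 to 1.40. This call ended with RLE factors (0.24, adjusted p = 0.0577), with no filter on low counts (0.25, adjusted p = 0.0536), and without control library 1, 2 or 3 or myopia library 1, 2 or 4. Those 6 log2 fold changes were 0.25, 0.21, 0.26, 0.25, 0.21 and 0.27, with adjusted p of 0.0727, 0.0928, 0.0702, 0.0777, 0.106 and 0.0530. Without control libraries 4 and 5 together it was 0.40 (adjusted p = 0.00131).

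NID1, nidogen-1, had the largest absolute fold change of the 9 genes on the TMM scale. It stood at 359, 337, 345, 364 and 436 CPM in control and at 336, 306, 273, 246 and 229 CPM in myopia. All 5 myopia libraries lay below all 5 controls, with the nearest pair almost equal. Such separation held for 1 of the 9 genes and for 57.8% of all genes tested. The means of 368 ± 39.2 and 278 ± 43.4 CPM (SD, n = 5 each) gave a log2 fold change of -0.41 ± 0.12 (SE; adjusted p = 0.00752), or 0.755-fold with a 95% confidence interval of 0.632 to 0.902, whereas with total counts it was 0.03 (adjusted p = 0.854), which is 0.45 below the median gene on that scale. NID1 passed without any 1 library, with log2 fold changes from -0.48 to -0.33.

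NID2, nidogen-2, which can stand in for nidogen-1 in many basement membranes, stood at 64.2, 56.8, 86.2, 73.7 and 103 CPM in control and at 74.2, 72.6, 79.5, 67.0 and 73.0 CPM in myopia. All 5 myopia libraries lay inside the control range. The spread was 24.1% of the mean in control and 6.08% in myopia, the reverse of the order for LAMA5. The log2 fold change of -0.07 ± 0.14 (SE) did not pass (adjusted p = 0.665, 95% confidence interval -0.37 to 0.23), and it turned to 0.36 with total counts and to 0.07 without control library 5.

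FN1, fibronectin, stood at 1322, 1244, 1391, 1750.2 and 1804 CPM in control and at 1762, 2186, 1668, 1180.3 and 1407 CPM in myopia. The highest and the lowest of the 10 libraries were both myopic. Control libraries 4 and 5 lay with myopia libraries 1 and 3, apart from control libraries 1 to 3. The log2 fold change was 0.13 ± 0.17 (SE; adjusted p = 0.515), with a 95% confidence interval of -0.24 to 0.49, whose upper end is a 1.41-fold rise. It was 0.002 without myopia library 2 and 0.23 without myopia library 4 (adjusted p = 0.992 and 0.224). Without control libraries 4 and 5 it was 0.33 and did not pass (adjusted p = 0.0900), and with total counts it was 0.55 (adjusted p = 0.0141).

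**Figure D2:**
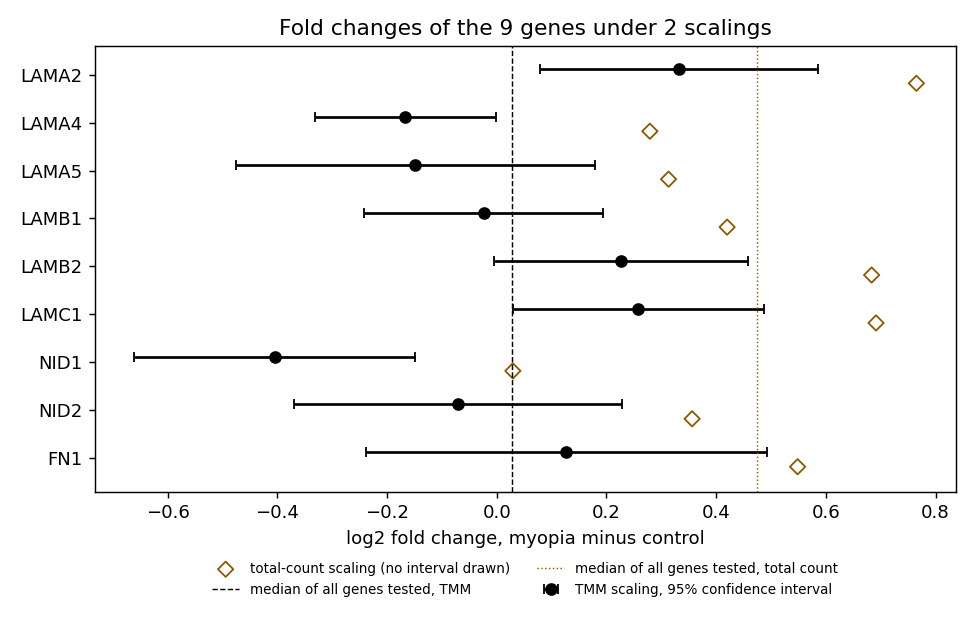
Log2 fold change (horizontal axis, myopia minus control) of the 9 genes: filled circles with 95% confidence intervals on the TMM scale, open diamonds with total counts, and vertical lines for the median of all genes tested on each scale (0.03 and 0.47). The 9 genes stand in the same order under both scalings, from NID1 (lowest) to LAMA2 (highest).

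The relations among the members were then measured without any scaling factor, as log2 ratios of the counts of 2 genes in the same library. Scaling cancels in such a ratio. Gene length cancels in its change between groups, though not in its level, where length acts alike on counts in every library. Whether it did so was not tested. All 36 pairs were tested by an exact two-sided permutation test over the 10 libraries, adjusted over the 36. The smallest p that 5 against 5 libraries can give is 0.00794, and 6 pairs reached it (adjusted p = 0.0476), each with no overlap between the groups. Another 6 pairs had an unadjusted p under 0.05 and did not pass.

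The 6 pairs had a simple layout: LAMA2, LAMB2 and LAMC1 each rose against NID1 and against LAMA4. NID1 stands in 3 of them and LAMA4 in 3, so they are not 6 separate results. How often pairs of other genes separate was not examined, while 57.8% of all single genes tested separated between the groups. The LAMC1 to NID1 ratio, which sets the laminin chain that holds nidogen against nidogen-1 itself, was 0.577, 0.543, 0.627, 0.662 and 0.600 in control and 0.814, 0.976, 0.914, 1.05 and 1.08 in myopia. Every myopia library lay well above every control. The mean log2 ratio went from -0.74 ± 0.11 to -0.06 ± 0.16 (SD, n = 5 each), a difference of 0.68 (exact permutation p = 0.00794).

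LAMA2 to NID1 was tightest among the controls, at 0.680, 0.692, 0.685, 0.713 and 0.639, and stood at 1.001, 1.30, 1.09, 1.03 and 1.27 in myopia. This was the largest shift of the 36, 0.73 on the log2 scale or 1.66-fold. LAMB2 to NID1 shifted by 0.64, from 1.31 to 2.14 in control to 2.19 to 3.46 in myopia, with the groups nearly touching.

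Within the alpha chains, the LAMA2 to LAMA4 ratio stood at 1.73, 1.76, 1.80, 2.05 and 2.06 in control and at 2.88, 3.04, 2.41, 2.29 and 2.58 in myopia. The shift was 0.49 on the log2 scale, or 1.40-fold, and control libraries 4 and 5 lay nearest to myopia. LAMA4 fell by 0.40 against LAMB2 and by 0.43 against LAMC1. LAMA2 against LAMA5 shifted as far, by 0.49, but LAMA5 varied more and the pair did not pass (exact permutation p = 0.0873, adjusted p = 0.165, n = 5 each).

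The 3 chains LAMA2, LAMB2 and LAMC1, which together form 1 of the laminin trimers, did not separate from one another. LAMA2 to LAMB2 differed by 0.09, LAMA2 to LAMC1 by 0.05 and LAMB2 to LAMC1 by -0.03 (exact permutation adjusted p = 0.667, 0.667 and 0.899, n = 5 each). Those values do not show that the chains changed alike, as the SDs of these ratios ran from 0.11 to 0.30. LAMB1 to LAMB2 shifted by -0.25 and NID1 to NID2 by -0.37, and neither passed (exact permutation adjusted p = 0.159 and 0.143). No ratio with FN1, NID2, LAMA5 or LAMB1 passed (0 of the pairs of each); the largest of these was NID1 to FN1, at -0.53 (exact permutation p = 0.0159, adjusted p = 0.0816).

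The 6 calls sat at the edge of what 5 against 5 libraries can show. Groups that do not overlap cannot come to overlap when a library is left out, so the 6 pairs stayed separate in all such runs. A lost call there is thus not a lost separation. With 1 library left out the shifts ran from 0.64 to 0.74 for LAMC1 to NID1. For LAMA4 to LAMC1 they ran from -0.49 to -0.37. The adjusted p missed the threshold for all pairs without any 1 control library, or without myopia library 2, 3 or 5 (0 pairs passing), while 6 pairs passed without myopia library 1 and 7 without myopia library 4. These were not all the same pairs: LAMA4 to LAMC1 did not pass in any of the 10 runs with 1 library left out, and NID1 to FN1, LAMA2 to LAMA5, LAMA2 to LAMB1 and LAMA4 to NID1 each passed in at least 1 of these runs. Without control libraries 4 and 5 together the LAMC1 to NID1 shift was 0.73 and 0 pairs passed. The smallest p is larger there, and 6 pairs reaching it would not pass after adjustment, so this 0 says little about those libraries.

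**Figure D3:**
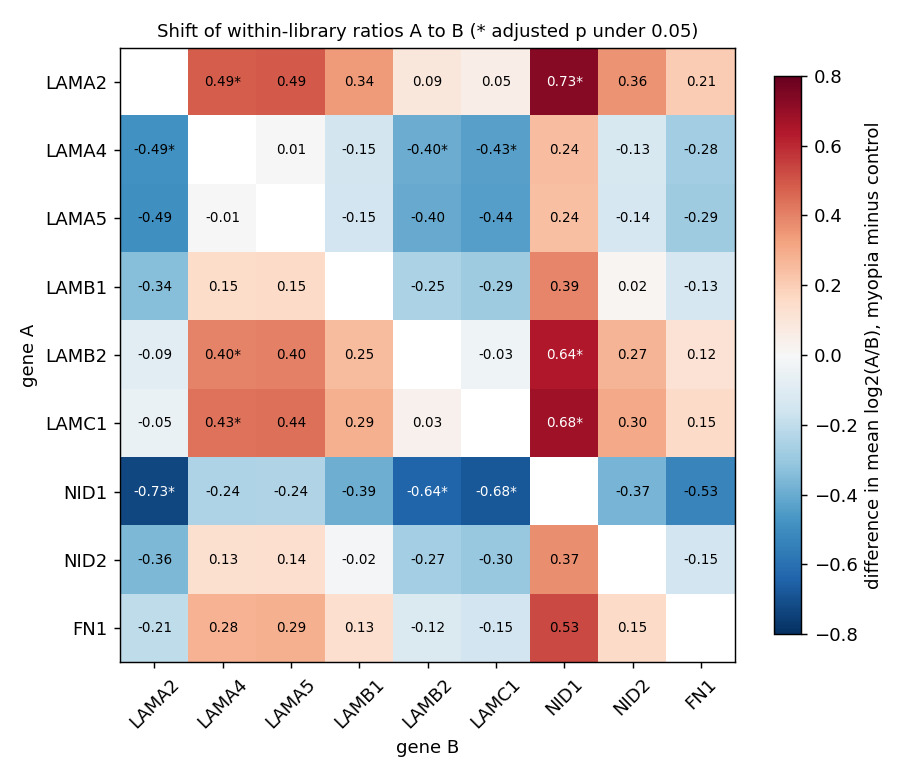
Difference in mean log2 ratio of gene A (rows) to gene B (columns), myopia minus control, for all 36 pairs, shown in both orientations. Red marks A rising against B, blue the reverse, and asterisks mark the 6 pairs with an adjusted p under 0.05: LAMA2, LAMB2 and LAMC1 against NID1 and LAMA4.

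**Figure D4:**
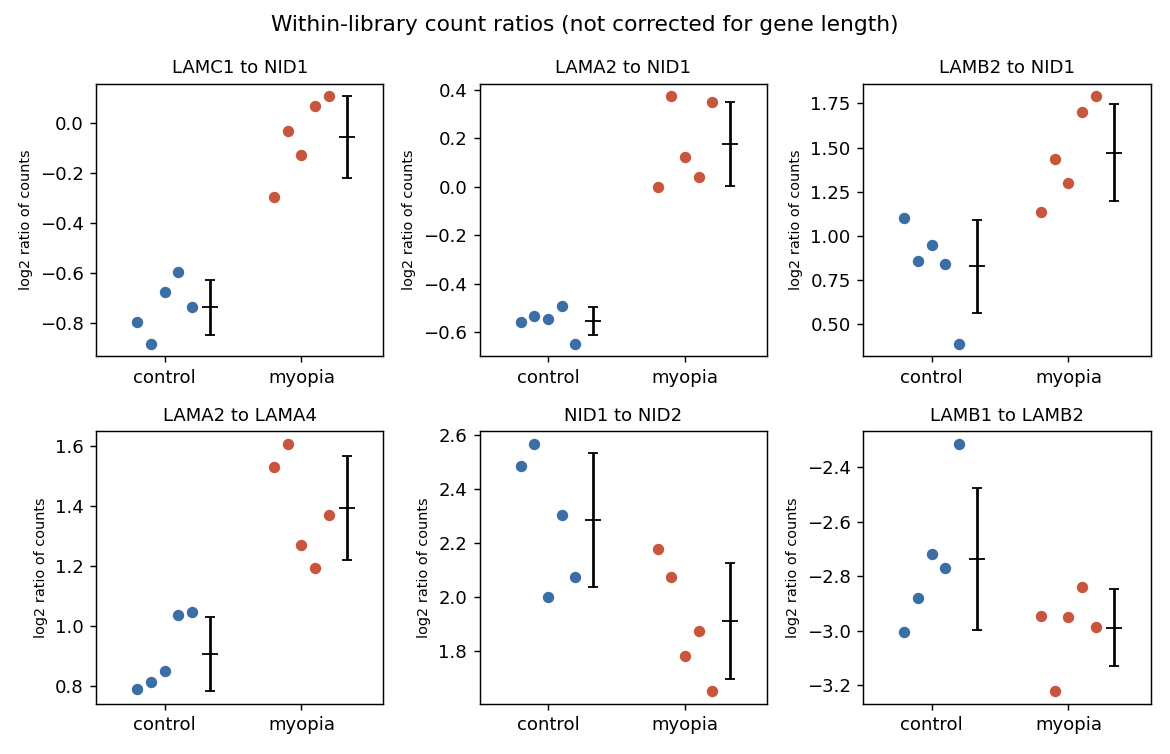
Log2 count ratios by library for 6 pairs, with control in blue, myopia in red, and black bars for mean and SD of 5 libraries; the vertical axes do not start at 0 and levels are not corrected for gene length. The groups separate in the first 4 panels and overlap for NID1 to NID2 and LAMB1 to LAMB2.

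Some members also varied together inside each group. After removal of group means, log2 CPM of FN1 and LAMA2 correlated at a Pearson r of 0.93 over the 10 libraries, of FN1 and LAMC1 at 0.80, of FN1 and NID1 at 0.77, and of LAMA2 and NID1 at 0.76. LAMA5 ran with LAMB1 (0.60), though mostly in myopia (0.88, against 0.27 in control). LAMA5 and LAMA4 had opposite signs in the groups, 0.37 in control and -0.83 in myopia. Thus NID1 followed FN1 and LAMA2 from eye to eye within a group while its ratio to LAMA2 differed between the groups. These values describe 10 libraries that share their scaling factors and the spread of the controls, and carry no test. LAMB1 and NID2 ran together among the controls (0.95) and oppositely in myopia (-0.85), over 5 libraries each.

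Of 9618 genes with a mean of at least 10 CPM, those most like each member by the same measure over 10 libraries were these. For FN1 they were PTGFRN (0.99) and LTBP1 (0.97), for LAMA2 ASPN (0.99) and FBN2 (0.99), and for LAMC1 RSC1A1 (0.96) and TEAD1 (0.96). NID1 was most like HUWE1 (0.96) and AZI2 (0.95), and NID2 most like FOS (0.96) and MAN2A1 (0.96). LAMB1 was nearest to MYO9B (0.97) and ARID5B (0.96), LAMB2 to MARCHF9 (0.97) and TOP1MT (0.96), LAMA4 to RAD17 (0.93) and ZNF503 (0.93), and LAMA5 to CCM2L (0.94) and SPTAN1 (0.94). With so many genes and 10 libraries, high values occur readily, and they are given as a description.

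The remaining laminin chains were scarce. Of 6 others, 5 were tested and 0 passed (0 at an unadjusted p under 0.05 and 0 with DESeq2), and LAMB4 was below the filter on low counts. Their summed level was 18.7 to 30.9 CPM in control and 20.3 to 38.9 CPM in myopia. LAMA1, an alpha chain of embryonic and retinal basement membranes, was the most counted of them, at 10.9 ± 3.42 and 14.6 ± 4.70 CPM (SD, n = 5 each; log2 fold change 0.42 ± 0.24, SE, adjusted p = 0.131). LAMA1, and COL4A1, COL4A2, HSPG2, DAG1, ITGA5 and the cell type markers named further on, were chosen for mention after their values were seen. With total counts 3 of the 5 passed as higher, where 52% of all genes tested did. Without control libraries 4 and 5 together 1 of the 5 did. Among the netrins, secreted relatives of laminin, 1 of 5 tested rose and 1 fell. NTN4, which binds the laminin gamma chain and loosens laminin networks, rose by 0.89 ± 0.15 (SE; adjusted p = 0.000151), from 25.1 ± 6.71 to 46.6 ± 4.29 CPM. NTNG2, a membrane-anchored netrin, fell by 1.25 ± 0.28 from a low control level of 3.17 CPM.

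The counts of related genes that follow are to be read against the 71.9% of all genes tested that passed, 36.9% as higher and 35.1% as lower. Of 21 other basement membrane genes tested, 7 rose and 9 fell (median of the 21 log2 fold changes -0.21). HMCN1 (hemicentin-1), a giant matrix protein that tethers basement membranes, stood at 27.2 ± 6.40 CPM in control and 133 ± 13.3 CPM in myopia and rose by 2.29 ± 0.15 (log2, SE; adjusted p = 1.43e-07). Of collagen IV chains, COL4A3 and COL4A5 rose by 2.71 ± 0.25 and 1.24 ± 0.14, from 1.64 and 39.5 CPM in control. In contrast, COL4A2 fell by 1.00 ± 0.12, from 416 to 208 CPM (adjusted p = 7.26e-06), and its partner COL4A1 did not pass (0.16 ± 0.12, adjusted p = 0.252). FREM1, of the complex under epithelia, rose by 1.12 ± 0.13. HSPG2 (perlecan), the heparan sulfate proteoglycan that nidogen also binds, went from 521 ± 44.0 to 452 ± 45.5 CPM and did not pass (-0.21 ± 0.10, adjusted p = 0.0878).

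Among the laminin receptors and the dystrophin complex that anchors them, 10 of 20 tested genes rose and 7 fell (median log2 fold change 0.18). DAG1 (dystroglycan), the receptor that binds the LAMA2 chain, stood at 205 ± 21.5 and 194 ± 13.3 CPM and did not pass (-0.08 ± 0.09, adjusted p = 0.472). SNTB2, a syntrophin of the complex, rose by 2.40 ± 0.16 from 4.32 CPM in control. SGCD, a sarcoglycan, rose by 1.19 ± 0.10 from 11.7 CPM. RPSA, a ribosomal protein also described as a laminin receptor, fell by 1.69 ± 0.16. Enzymes that build the laminin-binding sugar of dystroglycan split, with 4 of 18 higher and 7 lower (median -0.002). POMGNT2, which adds an early sugar of the chain, fell by 1.00 ± 0.12 and DPM3, of the mannose donor pathway, by 1.91 ± 0.19.

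Of 19 fibronectin receptors and their cytoplasmic adaptors tested, 10 rose and 7 fell (median 0.36), where 71.9% of all genes passed. ITGAV, an integrin chain that binds fibronectin, rose from 118 ± 4.42 to 229.7 ± 22.4 CPM (0.96 ± 0.08, adjusted p = 8.14e-07). ITGB8 and ITGA8 rose by 4.45 ± 0.35 and 2.36 ± 0.29 from low control levels of 1.96 and 3.01 CPM. TNS3, a tensin, fell by 0.69 ± 0.09. ITGA5, the alpha chain of the main fibronectin receptor, fell by 0.71 ± 0.11 (adjusted p = 8.23e-05). Matrix proteins that bind fibronectin were mostly lower, 9 of 15 against 1 higher (median -0.44). FBLN2 and FBLN1 (fibulins) and FSTL3, an activin-binding relative of follistatin, fell by 1.06 ± 0.09, 1.13 ± 0.15 and 0.89 ± 0.08, while THBS1 (thrombospondin-1) rose from 1513 ± 385 to 3878 ± 562 CPM.

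Splicing factors, some of which act on the alternative exons of fibronectin, rose in 6 of 8 cases and fell in 1 (median 0.80). SRSF1, SRSF7 and TRA2A rose by 0.92 ± 0.09, 0.91 ± 0.10 and 0.89 ± 0.08, and PTBP1 fell by 0.78 ± 0.08. Counts per gene do not show which FN1 exons were used. With total counts the higher and lower calls were 10 and 3 for other basement membrane genes, 12 and 4 for laminin receptors, 9 and 5 for the dystroglycan enzymes, 12 and 2 for fibronectin receptors, and 5 and 6 for fibronectin-binding matrix. On that scale 52% of all genes tested passed as higher and 18.7% as lower. ITGB1 and FBLN1 stand in 2 lists each.

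**Figure D5:**
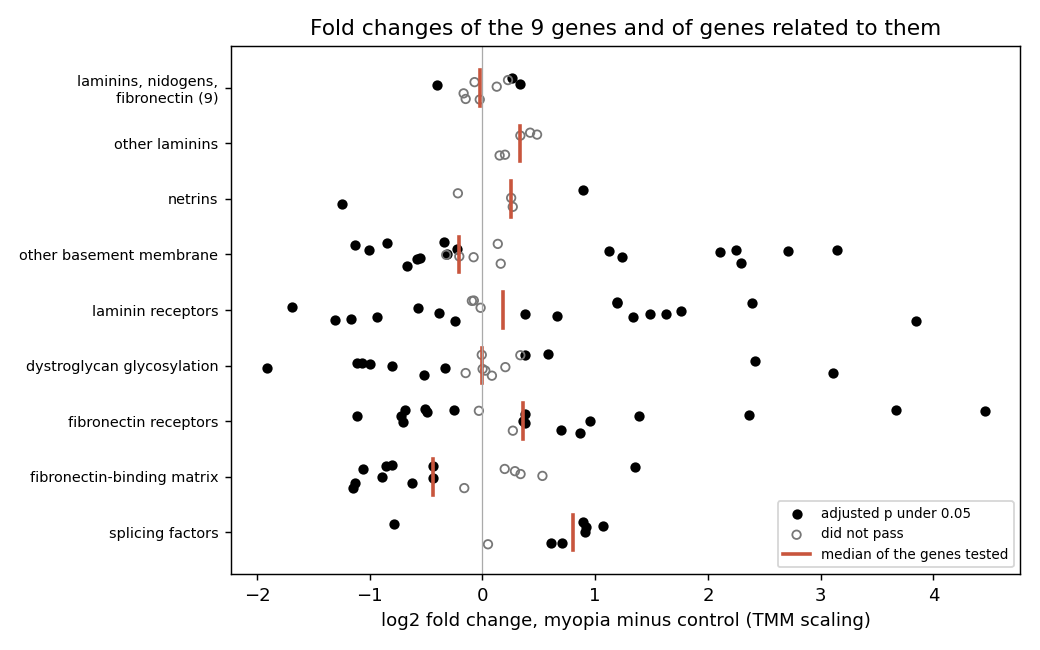
Log2 fold change (horizontal axis, myopia minus control, TMM scale) of the 9 genes and of 8 lists of related genes, 1 point per gene tested, filled where the adjusted p was under 0.05, with red bars at each list's median; vertical jitter is for legibility. The 9 genes lie between -0.41 and 0.33, while the receptor lists reach from -1.69 (RPSA) to 4.45 (ITGB8).

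Cell types that make these proteins were followed through marker genes, of which none was at 0 in all libraries. Summed CPM of 12 endothelial markers was 1357 to 1648 in control and 1191 to 1749 in myopia. For 10 pericyte and smooth muscle markers it was 1324 to 1945 and 1478 to 2128. Both ranges overlapped, as did those of 12 skeletal muscle markers (2798 to 7795 and 2077 to 4755) and 10 Schwann cell and nerve markers (4451 to 6746 and 2907 to 7680). Of those lists 4 of 12 endothelial markers tested rose and 3 fell, 3 of 10 pericyte and smooth muscle markers rose and 2 fell, 0 of 11 muscle markers rose and 4 fell, and 2 of 10 nerve markers rose and 4 fell. In contrast, 10 fibroblast markers, led by COL1A1, summed to 119315 to 156138 in control and 68046 to 93733 in myopia. Of these, 2 were higher, PDGFRA and DCN, and 6 were lower. COL1A1, among the lower, had means of 82710 CPM in control and 35547 CPM in myopia. Lower in every myopia library were also the sums of 8 macrophage markers (767 to 1164 against 253 to 379), 4 red blood cell genes (2503 to 10558 against 100.1 to 456) and 8 epithelial markers (23.2 to 41.5 against 14.7 to 19.4). Those of 12 retina and pigment epithelium markers were 328 to 627 and 80.6 to 334. Among these 4 lists 0 of 7 macrophage markers tested rose and 6 fell, and 0 of 4 red blood cell genes rose and 4 fell. Of 12 retinal markers 1 rose and 5 fell. Of 4 epithelial markers tested 1 rose, CDH1, and 2 fell. KRT8, among those that fell, made up most of the epithelial sum, with means of 25.6 CPM in control and 9.82 CPM in myopia. With total counts the higher and lower calls were 7 and 0 for endothelium, 6 and 1 for pericytes and smooth muscle, 1 and 0 for muscle, 4 and 1 for nerve, 3 and 4 for fibroblasts, 2 and 2 for retina and 1 and 6 for macrophages. These total-count calls are to be read against 52% of all genes higher and 18.7% lower on that scale. The part of these cell types in the laminin, nidogen and fibronectin values was not tested. In whole tissue fewer cells of a type and less RNA per cell cannot be told apart.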

How the data were processed

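The authors deposited 1 table of raw read counts, with a line per gene, for 10 scleral libraries; per the labels, libraries were made from total RNA with a SMARTer mRNA kit. What aligner, counter, annotation and strand setting were used is not given in the sources used here. The submitters' processing notes list GRCm38 and mm10 (builds of mouse) with no role, so no coordinates are given. A guinea pig RefSeq table (mCavPor4.1) held all 9 names.

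Of 18079 lines, 437 without a symbol (0.751% to 1.69% of counts) counted neither in library sizes nor in tests. Each remaining line was tested as its own gene. filterByExpr (minimum count 10, minimum total 15) kept 14683 and left 2959 untested; all 9 members passed, the lowest with 1612 counts. The test was edgeR 4.0.16 in R 4.3.3 (TMM, robust glmQLFit, glmQLFTest), with adjustment over all genes tested. It was tested on simulated data in which few genes changed, evenly up and down. That setting is unlike these data, so it does not check the TMM scaling here. Control libraries had TMM factors of 0.777 to 0.968, myopia libraries of 1.11 to 1.25. Standard errors are the fold change over the square root of F, and intervals are at 95%. Ratios used counts plus 0.5 and an exact permutation test. Alternatives used RLE, upper quartile and total-count scaling, no filter, DESeq2 1.42.0, voom in limma 3.58.1, a replicate block, summed lines, and left-out libraries.

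The 9 members and all lists were chosen with earlier results of these data known. Named are all members, from each list at most 4 called genes by smallest p, and the 2 genes most like each member; some genes this rule selects are not reported here. Whether any 2 eyes came from 1 animal is not in the labels; the p-values then reflect only the spread of these samples, which may be technical. Replicates differed by more than sampling of reads gives (chi-square at least 18.3 times its degrees of freedom).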

Additional observations from a re-analysis of the deposited data

Results flagged for a closer look

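Of 32 sets of 5 values examined (9 genes and 7 ratios in each group), 1 held a library that stood far from the other 4, where chance gives about 1 in 20. NID1 in control library 5 was at 435.6 CPM, with the next control at 364 CPM and the lowest at 337 CPM, a gap of 0.725 of the range where 0.71 is the critical value. Without that library the log2 fold change of NID1 was still called, at -0.33 (adjusted p = 0.0146).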

How the results depend on the processing

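Over 19 alternatives, the NID1 fall was reversed in sign only with total counts (0.029), LAMA2 was always positive (0.23 to 0.77) and LAMC1 too (0.21 to 0.69), with LAMC1 failing the threshold in 9 of 19. The number of genes called over the whole table stayed between 10103 and 10919. With total counts 6 members were called rather than 3, and the log2 fold changes were 0.28 for LAMA4, 0.31 for LAMA5, 0.42 for LAMB1, 0.68 for LAMB2, 0.029 for NID1, 0.36 for NID2 and 0.55 for FN1; 3 of the other laminins were called rather than 0. With RLE factors LAMA4 was -0.19 and LAMC1 0.24, with upper quartile factors LAMB1 was 0.045 and LAMB2 0.30, with no filter LAMC1 was 0.25, and with DESeq2 LAMA4 was -0.19. Without control libraries 4 and 5 LAMB1 was 0.062 and NID2 0.10, 1 of the other laminins was called, 0 pairs of members passed and LAMA2 to LAMA4 was 0.58.

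Leaving out 1 library at a time gave ranges of 0.23 to 0.40 for LAMA2, -0.20 to -0.13 for LAMA4, -0.25 to -0.051 for LAMA5, -0.080 to 0.053 for LAMB1, 0.19 to 0.30 for LAMB2, 0.21 to 0.34 for LAMC1, -0.48 to -0.33 for NID1, -0.15 to 0.073 for NID2 and 0.0020 to 0.23 for FN1. The pairs passing ranged from 0 to 7, and the LAMA4 to LAMA5 ratio from -0.12 to 0.13. Leaving out 1 library did not raise the smallest p the permutation test allows, and the lowest adjusted p in those runs was 0.0408. Leaving out control libraries 4 and 5 together did raise it. Same-numbered libraries of the groups did not deviate together (correlations from -0.13 to 0.01 over all genes tested, 0 of 5 best matched to their own number), so the numbers were not taken to pair the samples. With the replicate block 1 member was called (NID1, -0.41), LAMA2 was 0.32 and LAMC1 0.26, and 0 pairs passed, since 5 pairs allow no p under 0.0625. Depth did not limit the members, which had at least 1612 counts in each library. The cause of the other changes was not tested.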
